A study of Mus musculus with 6 samples.

Results

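The pyruvate dehydrogenase complex, its kinases and its phosphatases were examined in the myocardium of STZ-injected and PBS-injected mice through 10 genes. They are the kinases Pdk1, Pdk2, Pdk3 and Pdk4, the phosphatases Pdp1 and Pdp2, and the complex subunits Pdha1, Pdhb, Dlat and Pdhx. The 10 genes were chosen by name from 55401 genes in the complete files and found by their Ensembl identifiers on GRCm38. All animals were male and wild type with a time label of 8 weeks, and strain and age are not stated in the labels used. The tested mice had been injected with STZ (streptozotocin), which kills beta cells and was used to make mice diabetic, and the controls with PBS. Each group had 3 libraries of poly(A) RNA from myocardium, and the series asked which mechanisms differ in the diabetic heart muscle. Whether each library stands for its own animal is not stated, so p-values here reflect library-to-library spread alone, and that spread may be technical. Myocardium was sequenced as a mix of cell types, so fewer cells of a type and less RNA per cell cannot be told apart.

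The complex sits in the mitochondrial matrix and turns pyruvate into acetyl-CoA, which commits the carbon of glucose to oxidation. Kinases phosphorylate its Pdha1 subunit and so switch the complex off, and phosphatases take the phosphate away and switch it on again. In heart and skeletal muscle Pdk4 is the isoform best known to respond to fasting and to a lack of insulin. Its activity favours the use of fatty acids over glucose. The values below are transcript levels and not enzyme activity or phosphorylation.

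The values are FPKM (fragments per length of transcript and per mapped fragments), a scale on which levels of different genes can be compared. In the 5 complete files each library summed to 531384 to 589719, and the number of fragments behind them is unknown. The file of PBS replicate 3 listed 7711 genes (13.9%) and 5 of the 10 members, Pdk1, Pdk4, Pdhb, Dlat and Pdhx. The groups were therefore compared on 3 STZ libraries and on PBS replicates 1 and 2, with PBS replicate 3 set beside them where it listed a gene. All 6 cardiomyocyte markers of the marker list, Myh6 and Tnnt2 among them, were expressed, with a summed level of 8711 to 10096 FPKM in STZ libraries and 11627 to 12264 FPKM in PBS libraries. Skeletal muscle markers, 6 in number, summed to at most 1.12 FPKM in STZ libraries and 1.3 FPKM in PBS libraries, with Myh4 at 0 in all 5. STZ replicate 3 stood apart from the other STZ libraries in some ways. It had less of genes with long transcripts, with a median log2 difference from STZ replicates 1 and 2 of -0.079 in the longest tertile and 0.084 in the shortest. The atrial marker Myl7 was at 0.28 FPKM there and at 0.21 FPKM in PBS replicate 3, against 357 and 73.7 FPKM in STZ replicates 1 and 2 and 262 and 37.9 FPKM in PBS replicates 1 and 2. The atrial markers Myl4 and Sln were also lowest in STZ replicate 3, at 0.21 and 0 FPKM. Nppa, the last of the 4 atrial markers, was not. It stood at 1591 FPKM there, against 2864 and 876 FPKM in STZ replicates 1 and 2. In PBS replicates 1 and 2 Nppa was at 996 and 251 FPKM. Results are given below with and without STZ replicate 3 where that matters.

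Among the kinases, Pdk4 rose in STZ hearts, and it is the member of the 10 with a change past the threshold. Pdk4 (ENSMUSG00000019577, chromosome 6, 5483351 to 5496309, minus strand, GRCm38) was at 625, 703 and 295 FPKM in STZ replicates 1, 2 and 3, against 94.0, 97.2 and 92.3 FPKM in PBS replicates 1, 2 and 3. Every STZ library lay above every PBS library, and the PBS libraries lay close together while the STZ libraries spread over a 2.38-fold range. The means were 541 ± 216 FPKM in STZ hearts (SD, n = 3) and 95.6 ± 2.24 FPKM in PBS hearts (SD, n = 2), a ratio of 5.66. On the log2(FPKM + 1) scale, which has a pseudocount of 1, the change was 2.39 ± 0.36 (SE, 95% interval 1.51 to 3.27, limma adjusted p = 0.0245). Of the 10 members 9 could be tested, and 1 was called higher and 0 lower at an adjusted p of 0.05. Over all 11556 genes tested, 5.82% were called, 3.64% higher and 2.17% lower. Among 21856 protein-coding nuclear genes ordered by level, Pdk4 ranked 25, 25 and 90 in STZ replicates 1, 2 and 3, and 287 and 270 in PBS replicates 1 and 2.

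The lowest Pdk4 value of the STZ hearts was that of STZ replicate 3, the library with almost no Myl7. Set against PBS replicate 3, which also had almost no Myl7, it was 3.20-fold higher. The part of atrial tissue in the spread of Pdk4 was not tested. The call of Pdk4 needed most of the libraries. Its limma adjusted p was 0.0572 without STZ replicate 1, 0.0501 without STZ replicate 2, 0.141 without PBS replicate 1 and 0.132 without PBS replicate 2, with log2 changes of 2.16 to 2.42. Without STZ replicate 3 the log2 change was 2.78 and the limma adjusted p 0.00933. With PBS replicate 3 added where it listed a gene, the log2 change was 2.41 and the limma adjusted p 0.0071. In that fit 10.1% of all genes were called and 6.37% were called higher, but only 4824 of its 11569 genes had a value in PBS replicate 3. With no filter on low values the adjusted p was 0.0943 over 26229 genes.

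Pdk2, the most widely expressed isoform of the family, did not pass the test. Pdk2 (ENSMUSG00000038967, chromosome 11, 95026258 to 95041354, minus strand) was at 141, 136 and 140 FPKM in the STZ replicates, against 125 and 132 FPKM in PBS replicates 1 and 2. The STZ libraries lay above the PBS libraries, as held for 28.7% of all tested genes, and 47.4% had groups apart in either direction. The log2 change was 0.12 (95% interval -0.15 to 0.38, limma adjusted p = 0.528). Its sign was negative after quantile normalization, at -0.071. On the FPKM + 1 scale the interval runs from 0.904-fold to 1.30-fold.

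Pdk1 (ENSMUSG00000006494, chromosome 2, 71873224 to 71903858, plus strand), known as a target of the hypoxia factor Hif1a, was at 26.4, 24.1 and 16.8 FPKM in the STZ replicates, against 19.4, 16.7 and 17.5 FPKM in PBS replicates 1, 2 and 3. STZ replicates 1 and 2 lay above all PBS libraries and STZ replicate 3 among them. Its log2 change was 0.28 ± 0.21 (SE, limma adjusted p = 0.438). Leaving out 1 library gave 0.15 without STZ replicate 1, 0.47 without STZ replicate 3 (limma adjusted p = 0.109) and 0.17 without PBS replicate 2, and Pdk1 passed in none of the 5 such fits. Over the genes that all 6 files list, the log2 change was 0.29 with all 6 libraries (limma adjusted p = 0.242). This setting was chosen after the data were seen, and 20.5% of 4824 genes were called in it. The log2 change of Pdk1 was 0.48 there without STZ replicate 3 (limma adjusted p = 0.0239), where 865 of 4773 genes were called. Pdk3 (ENSMUSG00000035232, chromosome X, 93764607 to 93832201, minus strand), a kinase best known from other tissues such as testis and brain, was the least expressed. It stood at 1.12, 0.67 and 0.83 FPKM in the STZ replicates, against 0.4 and 0.72 FPKM in PBS replicates 1 and 2. The groups overlapped, and Pdk3 was not tested, because it did not reach 1 FPKM in 2 libraries. The other 9 members passed this filter.

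**Figure D1:**
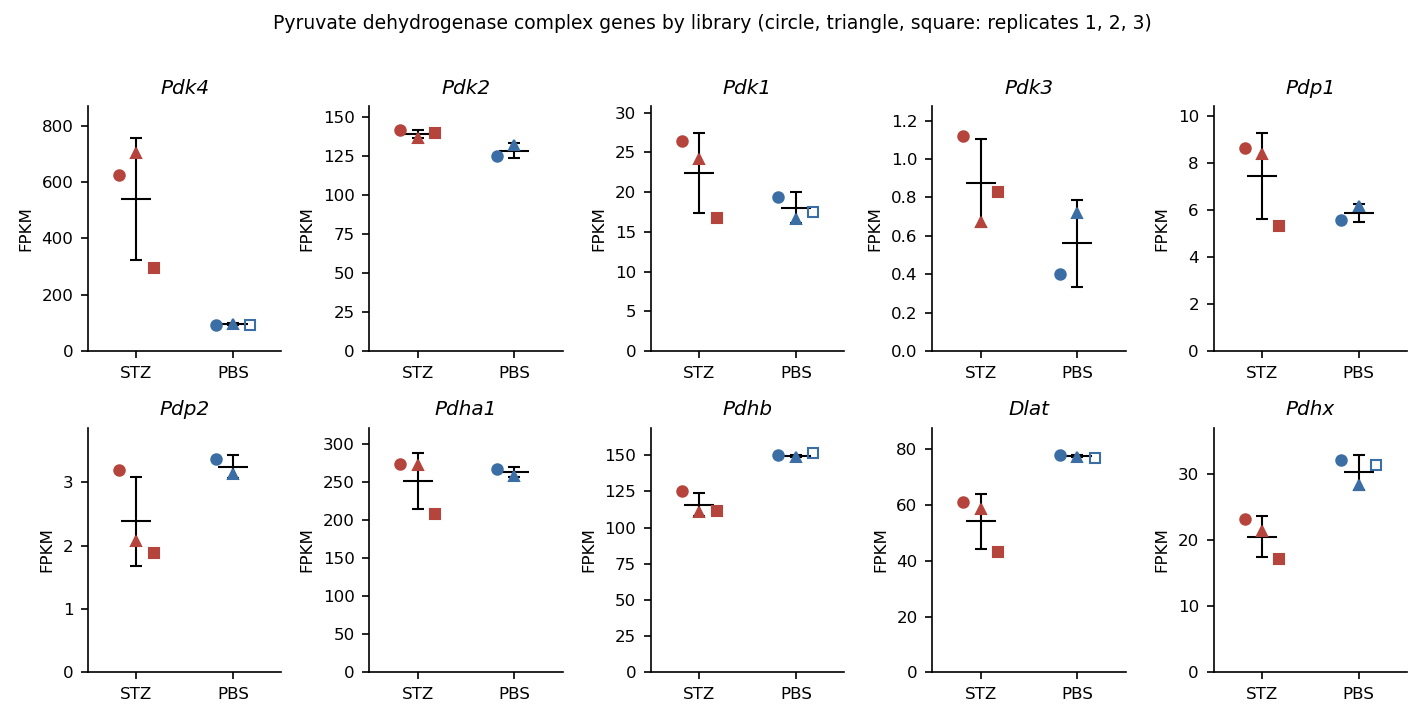
FPKM of each of the 10 genes in every library, with circles, triangles and squares for replicates 1, 2 and 3, red for STZ and blue for PBS, and black bars for the mean and SD of the complete libraries. The open square is PBS replicate 3, drawn where its file lists the gene and not in the mean; Pdk4 lies between 295 and 703 FPKM in STZ hearts and between 92.3 and 97.2 FPKM in PBS hearts.

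The make-up of the kinase pool differed between the groups, with Pdk4 in the first place in STZ hearts and Pdk2 in PBS hearts. Pdk4 made up 78.7%, 81.4% and 65.2% of the summed kinase FPKM in STZ replicates 1, 2 and 3, against 39.4% and 39.5% in PBS replicates 1 and 2. Pdk2 made up 17.8%, 15.8% and 30.9% in the STZ replicates, against 52.3% and 53.5% in the PBS replicates. The order of the isoforms was Pdk4, Pdk2, Pdk1, Pdk3 in all 3 STZ libraries, and Pdk2, Pdk4, Pdk1, Pdk3 in both complete PBS libraries. The difference of the Pdk4 share was 35.7 percentage points (75.1% ± 8.65 in STZ, SD, n = 3, and 39.4% ± 0.0471 in PBS, SD, n = 2). The groups did not overlap, and the exact permutation test, two-sided, gave p = 0.2, which is the smallest p that 3 libraries against 2 allow. A share is taken within a library and does not depend on how that library was scaled.

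Pdk1 made up 3.32%, 2.80% and 3.70% of the kinase FPKM in the STZ replicates, against 8.14% and 6.77% in PBS replicates 1 and 2. Its share was lower in every STZ library although the mean Pdk1 level was not. Pdk3 made up 0.0776% to 0.183% in the STZ replicates, against 0.168% and 0.292% in the PBS replicates, and the groups overlapped (exact permutation test, two-sided, p = 0.4). Without Pdk4, the summed kinase level was 169, 161 and 157 FPKM in the STZ replicates, against 145 and 149 FPKM in PBS replicates 1 and 2. With Pdk4, the sums were 794, 864 and 452 FPKM in the STZ replicates, against 239 and 246 FPKM in the PBS replicates. The kinase shares could not be set out for PBS replicate 3, whose file listed Pdk1 and Pdk4 but not Pdk2 and Pdk3.

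The change of Pdk4 was set directly against those of its relatives through ratios within each library. The log2 ratio of Pdk4 to Pdk2 was 2.15, 2.37 and 1.08 in the STZ replicates, against -0.41 and -0.44 in PBS replicates 1 and 2. The difference was 2.29 (exact permutation test, two-sided, p = 0.2). The log2 ratio of Pdk4 to Pdk1 was not among the planned ratios and was added because it could be had in all 6 libraries. It was 4.57, 4.86 and 4.14 in the STZ replicates, against 2.27, 2.54 and 2.40 in PBS replicates 1, 2 and 3. The groups did not overlap, with a difference of 2.12 and an exact permutation p of 0.1, two-sided, the smallest that 3 libraries against 3 allow.

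**Figure D2:**
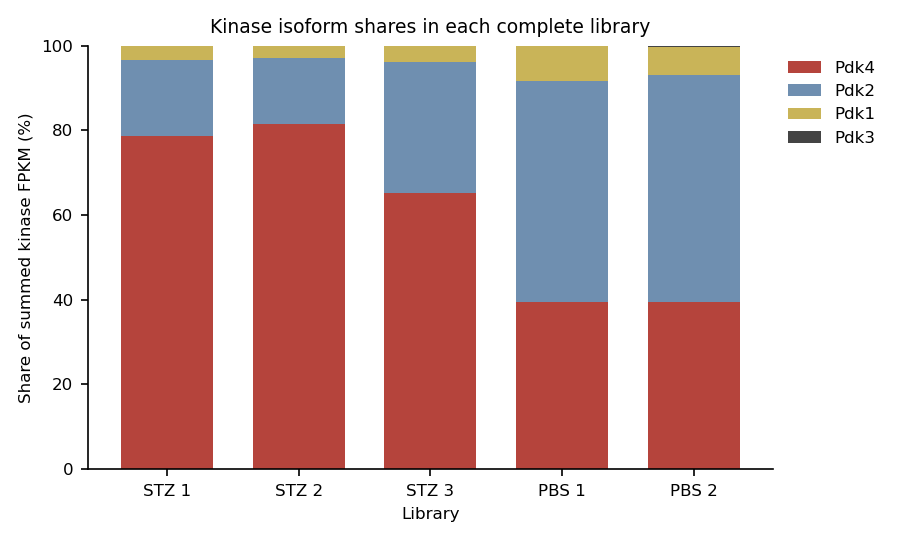
Stacked bars show the share of each kinase isoform in the summed FPKM of Pdk1, Pdk2, Pdk3 and Pdk4, in percent, for the 5 complete libraries. The Pdk4 segment reaches 65.2% to 81.4% in the STZ libraries and 39.4% to 39.5% in the PBS libraries, the Pdk2 segment takes most of the rest, and Pdk3, at most 0.292%, is too thin to see.

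The promoter windows of Pdk4 and Pdk2 are shown because these isoforms hold the largest kinase shares and moved apart. They run from 250 bases before to 50 after the start site, 5′ to 3′ on the minus strand, from RefSeq on GRCm38.p6, at chr6:5496229-5496528 for Pdk4 and at chr11:95041322-95041621 for Pdk2. Capitals mark the CCAAT box, CCAAT on either strand (read ATTGG on the printed strand).
Pdk4: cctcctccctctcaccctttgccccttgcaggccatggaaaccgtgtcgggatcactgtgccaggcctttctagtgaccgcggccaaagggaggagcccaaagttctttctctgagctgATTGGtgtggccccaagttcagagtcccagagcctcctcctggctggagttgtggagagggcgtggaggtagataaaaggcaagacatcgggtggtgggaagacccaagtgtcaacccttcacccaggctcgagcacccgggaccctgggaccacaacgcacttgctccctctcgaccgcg
Pdk2: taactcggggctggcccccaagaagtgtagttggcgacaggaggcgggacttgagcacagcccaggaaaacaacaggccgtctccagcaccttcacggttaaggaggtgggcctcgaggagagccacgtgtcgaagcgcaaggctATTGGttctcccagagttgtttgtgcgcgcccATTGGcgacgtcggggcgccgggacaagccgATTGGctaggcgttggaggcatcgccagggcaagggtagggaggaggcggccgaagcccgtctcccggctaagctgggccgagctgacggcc
The Pdk4 window held 1 CCAAT box and the Pdk2 window 3, and 37.4% of all 32851 windows of the table held at least 1. An E-box (CACGTG, which reads the same on both strands) was found once in the Pdk2 window and not in the Pdk4 window, and in 7.15% of all windows. The motif TATAAA (13.6% of windows), the nuclear receptor motif AGGTCA (16.3%), the forkhead motif TGTTTAC (3.65%), the ETS motif CCGGAAG (8.86%) and the GC box GGGCGG (35.7%), searched on both strands, had no match in either window. None of these motifs overlap each other in the printed windows. A second RefSeq window of Pdk2 held none of the 7 motifs. RefSeq windows were found for 9 of the 10 members, and the one without is Pdp1. Among the other members, the windows of Pdp2 and Pdhb held 2 and 3 CCAAT boxes and those of Pdk3 and Pdhx 1 each.

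The phosphatases that undo the action of the kinases were expressed at far lower levels and did not pass the test. Pdp1 (ENSMUSG00000049225, chromosome 4, 11958184 to 11966452, minus strand), the calcium-stimulated isoform, was at 8.63, 8.36 and 5.33 FPKM in the STZ replicates, against 5.59 and 6.15 FPKM in PBS replicates 1 and 2. STZ replicates 1 and 2 lay above both PBS libraries and STZ replicate 3 below them. Its log2 change was 0.27 ± 0.21 (SE, limma adjusted p = 0.44). It was 0.47 without STZ replicate 3 (limma adjusted p = 0.0911) and 0.17 without STZ replicate 1 (limma adjusted p = 0.662). Pdp2 (ENSMUSG00000048371, chromosome 8, 104591451 to 104599026, plus strand), the isoform known from rats to respond to insulin, was at 3.19, 2.07 and 1.89 FPKM in the STZ replicates, against 3.37 and 3.12 FPKM in PBS replicates 1 and 2. STZ replicate 1 lay between the PBS libraries, so the groups overlapped, and the log2 change was -0.35 (95% interval -0.80 to 0.10, limma adjusted p = 0.289).

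The ratio of Pdp1 to Pdp2 was 2.71, 4.04 and 2.82 in the STZ replicates, against 1.66 and 1.97 in PBS replicates 1 and 2. The groups did not overlap for this ratio, with a difference of 0.79 on the log2 scale (exact permutation test, two-sided, p = 0.2, the smallest possible). Summed, the phosphatases stood at 11.8, 10.4 and 7.22 FPKM in the STZ replicates, against 8.96 and 9.27 FPKM in the PBS replicates, and the groups overlapped. There were 67.2, 82.8 and 62.7 FPKM of kinases per FPKM of phosphatases in STZ replicates 1, 2 and 3, against 26.6 in both PBS replicates. The log2 ratio differed by 1.40 (6.14 ± 0.21 in STZ, SD, n = 3, and 4.73 ± 0.00258 in PBS, SD, n = 2, exact permutation p = 0.2, two-sided). STZ replicate 3 was the lowest STZ library in both parts of this ratio, and its ratio lay close to that of STZ replicate 1.

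The complex itself showed lower levels of 3 of its 4 listed subunits in STZ hearts, none past the threshold on the 5 complete libraries. Pdhb (ENSMUSG00000021748, chromosome 14, 8165996 to 8173025, minus strand), which forms the pyruvate-decarboxylating enzyme with Pdha1, was at 125, 111 and 112 FPKM in the STZ replicates, against 150, 149 and 152 FPKM in PBS replicates 1, 2 and 3. Dlat (ENSMUSG00000000168, chromosome 9, 50634633 to 50659780, minus strand), the acetyltransferase core, was at 61.0, 58.4 and 43.0 FPKM in the STZ replicates, against 77.9, 77.3 and 76.8 FPKM in PBS replicates 1, 2 and 3. Pdhx (ENSMUSG00000010914, chromosome 2, 103021075 to 103073513, minus strand), which anchors dihydrolipoamide dehydrogenase to that core, was at 23.2, 21.4 and 17.2 FPKM in the STZ replicates, against 32.2, 28.4 and 31.4 FPKM in PBS replicates 1, 2 and 3. For these 3 genes all STZ libraries lay below all 3 PBS libraries. On the complete libraries 18.8% of all tested genes had groups apart in this direction. The cardiomyocyte marker Actc1, a sarcomeric actin, also fell, with 3338, 2747 and 2926 FPKM in the STZ replicates, against 4890 and 4832 FPKM in PBS replicates 1 and 2 (log2 change -0.70, limma adjusted p = 0.0282). Among the other 5 markers of these cells none passed, with Myh6 and Ryr2 below PBS in every STZ library (log2 changes -0.36 and -1.24), Tnnt2 above (0.36), and Tnni3 and Myl2 overlapping. The part of these markers in the lower subunit levels was not tested.

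The log2 changes were -0.37 ± 0.12 for Pdhb (SE, limma adjusted p = 0.115), -0.53 ± 0.18 for Dlat (limma adjusted p = 0.125) and -0.54 ± 0.16 for Pdhx (limma adjusted p = 0.0988). The STZ means differed from those of PBS replicates 1 and 2 by -22.6% for Pdhb, -30.2% for Dlat and -32.0% for Pdhx. With PBS replicate 3 added where listed, Pdhb and Pdhx passed (limma adjusted p = 0.0475 and 0.0411), where 3.75% of all genes were called lower. Most genes behind that share had no value in PBS replicate 3 and so fewer controls than Pdhb and Pdhx. Dlat had a limma adjusted p of 0.0608 there. Over the genes that all 6 files list, a setting chosen after the data were seen, all 3 passed (limma adjusted p = 0.0222 for Pdhb, 0.0325 for Dlat and 0.02 for Pdhx), where 20.5% of 4824 genes were called, 12.6% higher and 7.9% lower. Without STZ replicate 3 in that setting they also passed, with log2 changes of -0.35, -0.37 and -0.44, where 865 of 4773 genes were called. On the complete libraries without STZ replicate 3 none of them passed (limma adjusted p = 0.127, 0.0911 and 0.111). None passed either with PBS replicate 3 added and the replicate number as a block (limma adjusted p = 0.0783, 0.0777 and 0.0667).

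Pdha1 (ENSMUSG00000031299, chromosome X, 160122209 to 160138413, minus strand), the subunit that carries the phosphorylation sites, did not share this pattern. It was at 273, 272 and 209 FPKM in the STZ replicates, against 268 and 258 FPKM in PBS replicates 1 and 2. STZ replicates 1 and 2 lay above both PBS libraries and STZ replicate 3 below them. The log2 change was -0.077 (95% interval -0.45 to 0.30, limma adjusted p = 0.784), and without STZ replicate 3 it was 0.052. Map3k15, on the opposite strand, covers 16.2% of the exon length of Pdha1, and whether counting used strand is not stated. Map3k15 stood at 0.55 to 0.76 FPKM in STZ libraries and at 0.25 and 0.37 FPKM in PBS libraries. None of the other members overlapped the exons of another annotated gene.

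Ratios within each library set the subunits against each other, and their order was Pdha1, Pdhb, Dlat, Pdhx in each of the 5 complete libraries. Per FPKM of Pdha1 there were 0.224, 0.215 and 0.206 FPKM of Dlat in the STZ replicates, against 0.291 and 0.299 in PBS replicates 1 and 2. For Pdhx the ratio to Pdha1 was 0.0849, 0.0785 and 0.0825 in the STZ replicates, against 0.12 and 0.11 in the PBS replicates. For Pdhb it was 0.458, 0.407 and 0.535 in the STZ replicates, against 0.56 and 0.576 in the PBS replicates. The groups did not overlap for any of these 3 ratios (exact permutation p = 0.2 each, two-sided, the smallest possible). The ratio of Pdhx to Dlat overlapped between the groups, at 0.382 ± 0.0172 in STZ (SD, n = 3) and 0.39 ± 0.0319 in PBS (SD, n = 2). STZ replicate 3, which had the lowest Dlat, Pdhx and Pdha1 levels, lay near the other STZ libraries in the ratios of Dlat and Pdhx to Pdha1.

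**Figure D3:**
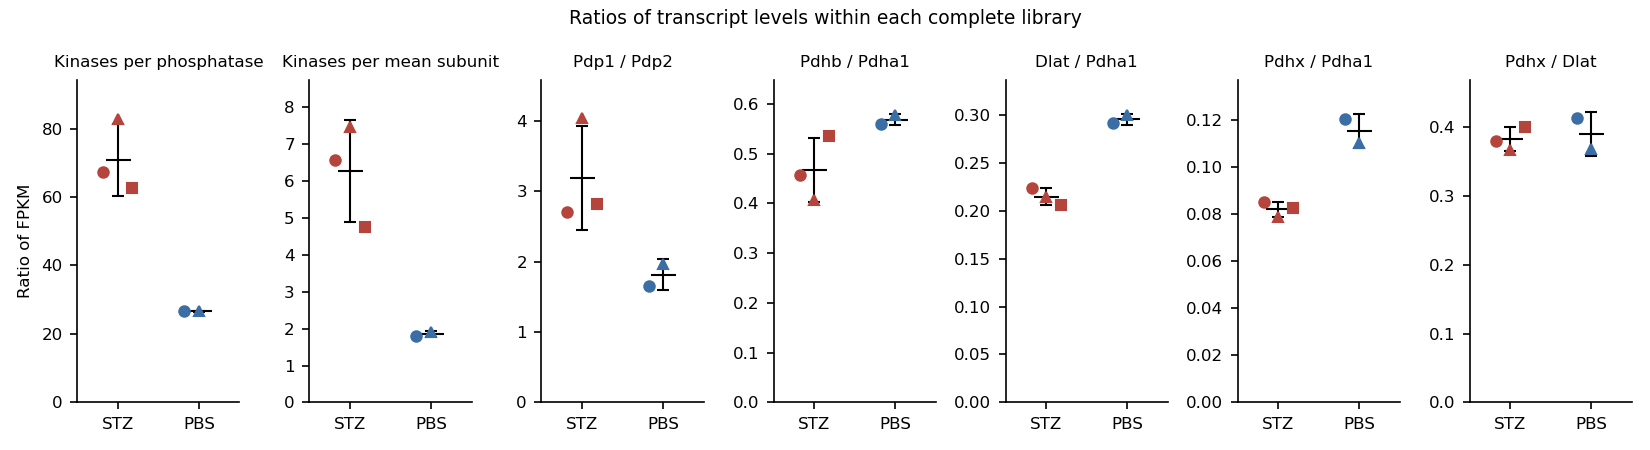
Ratios of FPKM in the 5 complete libraries, with circles, triangles and squares for replicates 1, 2 and 3, red for STZ and blue for PBS, and black bars for the mean and SD. Kinases per phosphatase lie between 62.7 and 82.8 in STZ hearts and at 26.6 in PBS hearts, the ratios of Pdhb, Dlat and Pdhx to Pdha1 are lower in STZ hearts, and the ratio of Pdhx to Dlat overlaps.

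Relative to the mean of the 4 complex subunits, 3 of which had lower levels in STZ hearts, kinase transcripts were more abundant there. The summed kinases stood at 6.58, 7.47 and 4.76 times that mean in STZ replicates 1, 2 and 3, against 1.81 and 1.92 times in PBS replicates 1 and 2. The log2 ratio differed by 1.73 (2.62 ± 0.34 in STZ, SD, n = 3, and 0.90 ± 0.061 in PBS, SD, n = 2, exact permutation p = 0.2, two-sided). This ratio and that of kinases to phosphatases mostly restate the rise of Pdk4. Without Pdk4 the mean kinase sum was 162 FPKM in STZ hearts and 147 FPKM in PBS hearts, against a subunit mean of 110 and 130 FPKM. Among the 10 members, 7 had their lowest STZ value in STZ replicate 3, against 35.1% of all tested genes. They are Pdk1, Pdk4, Pdp1, Pdp2, Pdha1, Dlat and Pdhx.

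Genes that work with the complex were read from a list of 9 partners, of which 8 were tested and 0 passed in either direction. Of the 8, 7 had a negative sign, with a median log2 change of -0.33 against 0.061 over all genes tested, where 43.0% had a negative sign. Dld, the dihydrolipoamide dehydrogenase of this complex and of its relatives, was at 98.0, 93.0 and 66.7 FPKM in the STZ replicates, against 106, 104 and 104 FPKM in PBS replicates 1, 2 and 3. All STZ values were below all PBS values, and the log2 change was -0.31 ± 0.19 (SE, limma adjusted p = 0.344). Mpc2, a part of the carrier that brings pyruvate into mitochondria, was at 25.6 ± 1.77 FPKM in STZ hearts (SD, n = 3) and at 33.0 ± 0.0990 FPKM in PBS hearts (SD, n = 2, limma adjusted p = 0.13). Pdpr, the regulatory subunit of the phosphatase, was at 10.5, 8.99 and 2.81 FPKM in the STZ replicates, against 11.2 and 9.1 FPKM in PBS replicates 1 and 2, with STZ replicate 3 far below the rest.

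Of 11 genes of pyruvate and lactate metabolism, 9 were tested, and Gpt2 fell while 0 rose. Gpt2, the mitochondrial enzyme that links pyruvate and alanine, was at 2.74, 2.57 and 2.77 FPKM in the STZ replicates, against 5.24 and 4.64 FPKM in PBS replicates 1 and 2 (log2 change -0.68 ± 0.12, SE, limma adjusted p = 0.0312). Pcx, which carboxylates pyruvate to oxaloacetate, was at 3.43, 3.94 and 1.82 FPKM in the STZ replicates, against 7.28, 7.25 and 6.52 FPKM in PBS replicates 1, 2 and 3. The groups did not overlap, with a log2 change of -1.06 (limma adjusted p = 0.0604). The list had a median of -0.38, and 8 of its 9 tested genes had a negative sign, against 43.0% of all tested genes.

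The sister complexes that oxidise branched-chain ketoacids and 2-oxoglutarate share the architecture of this one. Of 8 listed genes 7 were tested, and Bckdhb fell while 0 rose. All 7 had a negative sign and groups that did not overlap, with a median log2 change of -0.41. Over all tested genes 43.0% had a negative sign, and 18.8% had all STZ libraries below PBS. Bckdhb, the counterpart of Pdhb in the branched-chain complex, was at 15.2 ± 0.977 FPKM in STZ hearts (SD, n = 3) and at 24.1 ± 0.990 FPKM in PBS hearts (SD, n = 2, log2 change -0.64, limma adjusted p = 0.039). Ogdh, the 2-oxoglutarate dehydrogenase, was at 260, 265 and 212 FPKM in the STZ replicates, against 345, 350 and 335 FPKM in PBS replicates 1, 2 and 3 (log2 change -0.51, limma adjusted p = 0.0845). The values of Bckdk, the kinase of the branched-chain complex, were 17.0 ± 0.301 FPKM in STZ hearts and 19.5 ± 0.205 FPKM in PBS hearts (log2 change -0.19, limma adjusted p = 0.318). Unlike Pdk4, this kinase thus had a negative sign; the difference between the kinases of both complexes was not tested.

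Factors reported to act on the kinase genes were read from a list of 12, all tested, of which Myc rose and 0 fell. Myc was at 2.40, 2.55 and 2.30 FPKM in the STZ replicates, against 0.57, 1.21 and 1.05 FPKM in PBS replicates 1, 2 and 3 (log2 change 0.87 ± 0.18, SE, limma adjusted p = 0.044). Pparg, a nuclear receptor of fat storage, was at 4.39, 5.33 and 5.84 FPKM in the STZ replicates, against 2.91, 2.88 and 2.11 FPKM in PBS replicates 1, 2 and 3 (log2 change 0.66, limma adjusted p = 0.0507). The list split evenly by sign, with 6 genes positive and 6 negative and a median of 0.051. Transcript levels of these factors do not measure their activity.

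**Figure D4:**
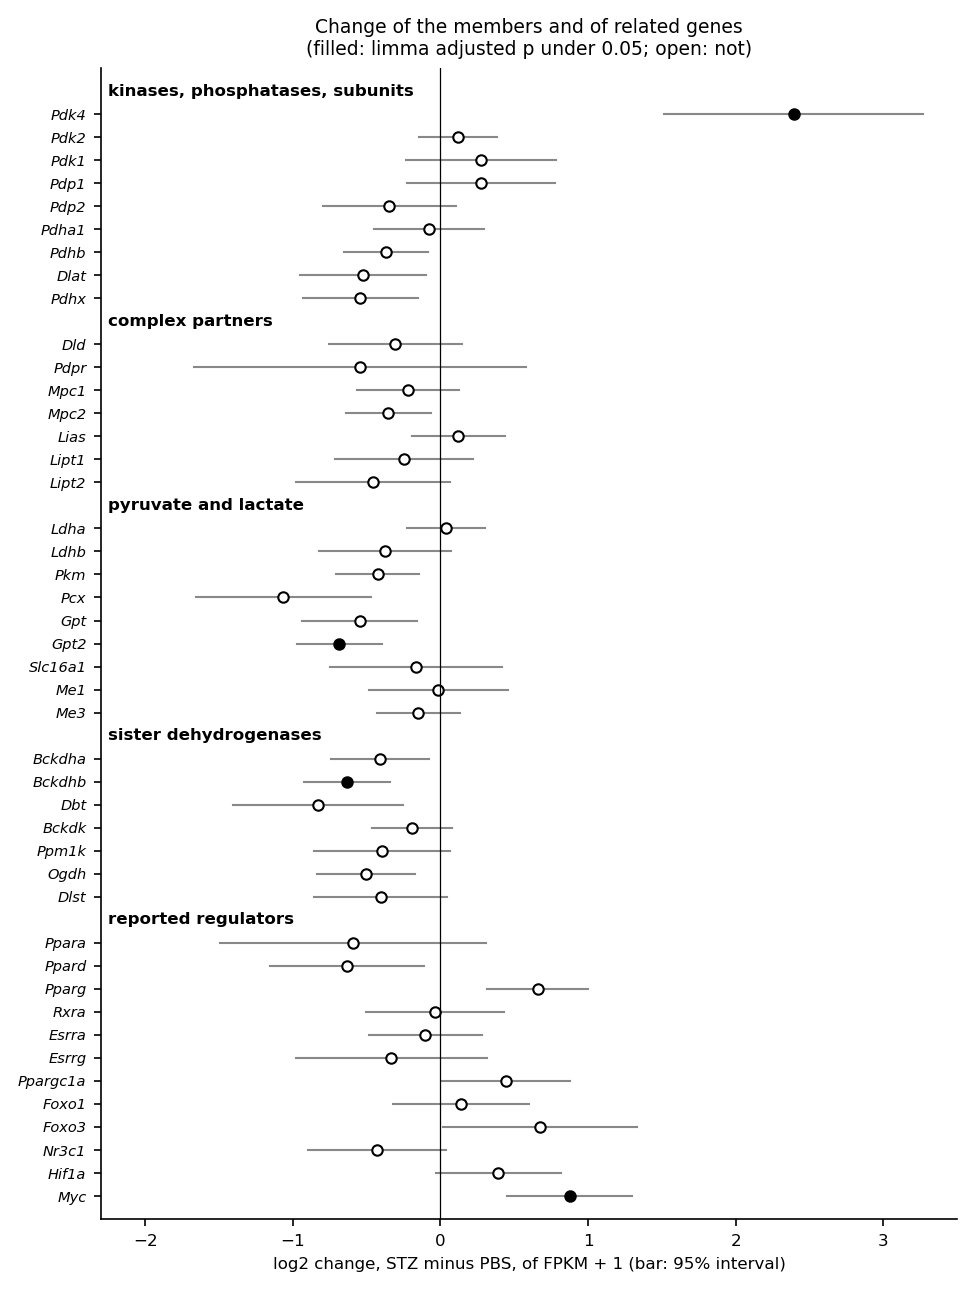
Log2 change of FPKM + 1, STZ minus PBS, with its 95% interval, for the tested members and for tested genes of the 4 lists of related genes. Filled points passed a limma adjusted p of 0.05, which holds for Pdk4, Gpt2, Bckdhb and Myc. The open points of Pdhb, Dlat and Pdhx lie below 0 with intervals that do not reach it, as do other open points such as Mpc2 and Ogdh. The intervals are per gene and not adjusted for the number of tests.

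The genes nearest to Pdk4 in their pattern were sought by the root mean square distance of centred log2(FPKM + 1) values over the 5 complete libraries. Ucp3, Scd4, Acot1 and Txnip were among the nearest 5, at distances of 0.22, 0.32, 0.32 and 0.37 on the log2 scale. Over so few libraries this likeness rests mainly on the difference between the groups. Ucp3, a carrier of the inner mitochondrial membrane, was at 43.3, 59.9 and 32.2 FPKM in the STZ replicates, against 8.3 and 7.53 FPKM in PBS replicates 1 and 2. Like Pdk4 it was highest in STZ replicate 2 and lowest in STZ replicate 3. Txnip, a glucose-responsive arrestin, was at 270, 266 and 214 FPKM in the STZ replicates, against 62.9 and 59.9 FPKM in PBS replicates 1 and 2.

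Markers of adipocytes, neutrophils, endothelial cells and fibroblasts were set beside these values. Of 6 adipocyte markers, Lep and Ucp1 were at 0 in all 5 complete libraries, and Adipoq was at most 0.28 FPKM in STZ libraries and 0.36 FPKM in PBS libraries. Cidea held nearly all of the list's sum and rose, at 43.4 ± 4.25 FPKM in STZ hearts (SD, n = 3) and 17.7 ± 3.35 FPKM in PBS hearts (SD, n = 2, limma adjusted p = 0.0169), and its part in the results was not tested. Neutrophil markers, 4 in number, summed to 41.1 to 56.9 FPKM in STZ libraries and to 3.61 to 8.06 FPKM in PBS libraries, and their part was not tested either. Of these, S100a8, S100a9 and Retnlg rose past the threshold. Csf3r, too low to enter the fit, overlapped, at 0.81, 0.38 and 0.58 FPKM in the STZ replicates, against 0.32 and 0.6 FPKM in PBS replicates 1 and 2. The 4 endothelial markers summed to 92.3 to 110 FPKM in STZ libraries and to 94.1 and 95.5 FPKM in PBS libraries, and none passed. They did not move together. Pecam1 lay above PBS in every STZ library (means 25.2 and 18.9 FPKM) and Kdr below (19.6 and 22.0 FPKM), while Cdh5 and Tie1 overlapped. Over all tested genes 28.7% lay above and 18.8% below in this way. The 4 fibroblast markers summed to 88.2 to 93.2 FPKM in STZ libraries and to 70.9 and 78.2 FPKM in PBS libraries, and none passed. Most of each sum was Dcn, at 66.5, 74.3 and 74.2 FPKM in the STZ replicates, against 56.7 and 53.2 FPKM in PBS replicates 1 and 2. Dcn, Tcf21 and Pdgfra lay above PBS replicates 1 and 2 in every STZ library. Pdgfra was at 3.64 FPKM in PBS replicate 3, above the 3.41 FPKM of STZ replicate 3. Lum overlapped and had a negative sign (log2 change -0.26).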

How the data were processed

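The deposited values are FPKM per gene, 1 file per library, given by the authors to 2 decimals. Per the submitters' processing notes, cutadapt 1.9, HISAT2 2.0.4 and StringTie 1.3.4d were used on GRCm38. Annotation release, strand setting and filters are not stated there, so reads of overlapping genes or copies could be shared. Per the labels' protocols, poly(A) RNA and a dUTP strand-marking step were used. Deposited FPKM scale with the library's sum, so large changes in abundant genes move all values. Mitochondrial genes held 45.5%, 42.0% and 43.3% of that sum in STZ replicates 1, 2 and 3, against 47.3% and 47.1% in PBS replicates 1 and 2. This share was thus lower in every STZ library. Identifiers were matched to GENCODE release M21 on the same build. Per symbol, the identifier with the highest mean FPKM was used.

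Genes that reached 1 FPKM in 2 or more fitted libraries were tested on log2(FPKM + 1) with limma 3.58.1 in R 4.3.3 (eBayes with trend, no covariate). P-values were two-sided and adjusted by Benjamini and Hochberg's method across every tested gene, with calls at 0.05. Shares and ratios were tested with exact permutation tests in scipy 1.17.1. PBS replicate 3, whose file lists fewer genes, was left out of the fit. The fit was checked on simulated data. The members and the lists of related genes and markers were chosen with earlier results of these data known. The genes named are all members, Dld, the genes of each list past the threshold and its 2 smallest p, and the 5 genes nearest to Pdk4 (clone names and gene models left out); 2 of these are not reported here, and other list genes and markers were named after their values were seen. Alternatives changed the pseudocount, filter, scaling, variance model, block and libraries.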

Additional observations from a re-analysis of the deposited data

How the results depend on the processing

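The direction of the Pdk4 change and of the shares and ratios of Pdk4 held under all alternatives tried, with log2 changes of Pdk4 between 2.16 and 2.80. Its call did not hold under 5 of 22. The count of members called higher was 1, against 0 with no filter 0 to 1 when libraries were left out and 2 over the genes of all 6 files without STZ replicate 3. The count called lower was 0, against 2 with PBS replicate 3 added, and 3 over the genes of all 6 files, with or without the replicate block and without STZ replicate 3; leaving out libraries of the 5 gave 0. Over all genes 672 were called, against 81 with no filter, 1239 with array weights, 1171 with PBS replicate 3 added, 64 with the replicate block on 5 libraries and 24 to 398 when libraries were left out, 24 without PBS replicate 1 and 29 without PBS replicate 2. The causes were not tested, except that fewer libraries or more genes enter some of these fits. Signs reversed for Pdk2 after quantile normalization (-0.071) and for Pdha1 without STZ replicate 3 (0.052). The replicate block, with or without PBS replicate 3, gave the same 0.052 for Pdha1. STZ replicate 3 has no partner for this gene, so the block sets it aside and adds no separate check. Leaving out libraries gave -0.14 to 0.052 for Pdha1. The difference of the Pdk1 share lay between -4.87 and -3.50 percentage points when libraries were left out, and that of the Pdk3 share was -0.35 with 1 FPKM added to each value, against -0.096, and -0.16 without PBS replicate 1 and -0.034 without PBS replicate 2. Same-numbered libraries correlated at 0.18, -0.049 and 0.15 in their deviations over 4824 genes, and differently numbered ones at -0.23 to 0.093. With so few libraries these values cannot decide whether equal numbers are pairs. The main fit did not take them as pairs. With the block on 5 libraries the limma adjusted p of Pdk4 was 0.026 and its log2 change 2.78. STZ replicate 3 has no partner in that fit, so this change equals the one without STZ replicate 3. The PBS replicate 3 alternative gave no value for ratios that need a gene its file does not list. Depth is unknown, so precision at low levels such as Pdk3 cannot be stated.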
